A study of Mus musculus with 9 samples.

Results

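The SLC16 genes encode membrane carriers of small acids and related metabolites, and 7 of them were followed in cells sorted from mouse liver during cholestasis. The members are Slc16a1, Slc16a3, Slc16a6, Slc16a7, Slc16a9, Slc16a10 and Slc16a13, 7 of the 21936 protein-coding rows of the deposited table of normalized counts. The family was chosen by measured values: Slc16a9 was lower and Slc16a1 higher at 4 weeks than at 2 weeks of bile duct ligation, so every 4-week against 2-week value of a member is given as a description, with no test.

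The cells were labelled lymphatic endothelial cells (LyECs) and came from IL7GFP/knock-in reporter mice, in which green fluorescent protein marks cells that use the Il7 locus. Bile duct ligation (BDL) is surgery that stops bile from leaving the liver. There were 3 libraries at 4 weeks after BDL, 3 at 2 weeks after BDL and 3 after sham surgery, and all 9 shared the reporter allele. Between 20000 and 50000 cells per sample were sorted into TRIzol and sequenced after depletion of ribosomal RNA. Strain, age, sex, the gate, the time from sham surgery to collection and whether a library holds 1 mouse or several are not given in the sources used here.

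Several SLC16 carriers, though not all, move a monocarboxylate such as lactate, pyruvate or a ketone body across the plasma membrane together with a proton, in the direction set by the gradients. The products of Slc16a1 (MCT1), Slc16a7 (MCT2) and Slc16a3 (MCT4) do this best understood work, MCT4 being the low-affinity form typical of glycolytic cells that export lactate. MCT1 and MCT4 reach the membrane bound to the glycoprotein basigin (Bsg), and MCT2 bound mainly to embigin (Emb). Other members carry other cargo, among them carnitine (SLC16A9 in humans), aromatic amino acids and thyroid hormone (Slc16a10). Endothelial cells depend largely on glycolysis, which makes lactate.

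The whole reads recovered numbered 592419 in the shallowest library, sham replicate 2, and 2259239 to 5314381 in the others. In that shallow library 1 read counted for 5.26 normalized counts, against 0.589 to 1.23 elsewhere. Sham replicate 2 stood apart across genes, with a median correlation of 0.774 with the other libraries, against 0.888 to 0.928 for the rest. The lymphatic regulator Prox1 was read in every library, at 444 to 1675 normalized counts at 4 weeks, 734 to 1659 at 2 weeks and 321 to 2210 after sham surgery. Clec4f, a lectin of Kupffer cells, the resident liver macrophages, was at 534 to 1733 at 4 weeks, 3428 to 11879 at 2 weeks and 6850 to 13769 after sham surgery, so the values are those of a mixed population. In such samples, fewer cells of a type and less RNA per cell cannot be told apart.

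All 7 members averaged at least 10 normalized counts and were tested. Of the other SLC16 genes, Slc16a12 also reached that minimum, and Slc16a4, Slc16a5, Slc16a8, Slc16a11 and Slc16a14 lay below it with means of 1.26 to 3.95. Per kilobase of merged exon, the order of mean levels over the 9 libraries began with Slc16a10 at 55.4 ± 20.8 normalized counts per kb (SD, n = 9). Slc16a9 followed at 27.1 ± 15.1, Slc16a6 at 20.1 ± 5.17, Slc16a1 at 13.7 ± 6.53 and Slc16a3 at 13.7 ± 6.21. Slc16a12 stood at 12.5 ± 3.35, Slc16a13 at 10.8 ± 7.96 and Slc16a7 at 8.24 ± 2.32. Among the genes named from Slc16a9 down, neighbours in that order differed by less than the larger of their SDs. The order changed between groups: Slc16a9 was at 10.2 ± 0.927 per kb at 4 weeks, under Slc16a6, Slc16a1, Slc16a3 and Slc16a12, and at 43.6 ± 8.25 at 2 weeks, above all of them (SD, n = 3 each). After sham surgery it stood at 27.7 ± 3.54 per kb.

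**Figure D1:**
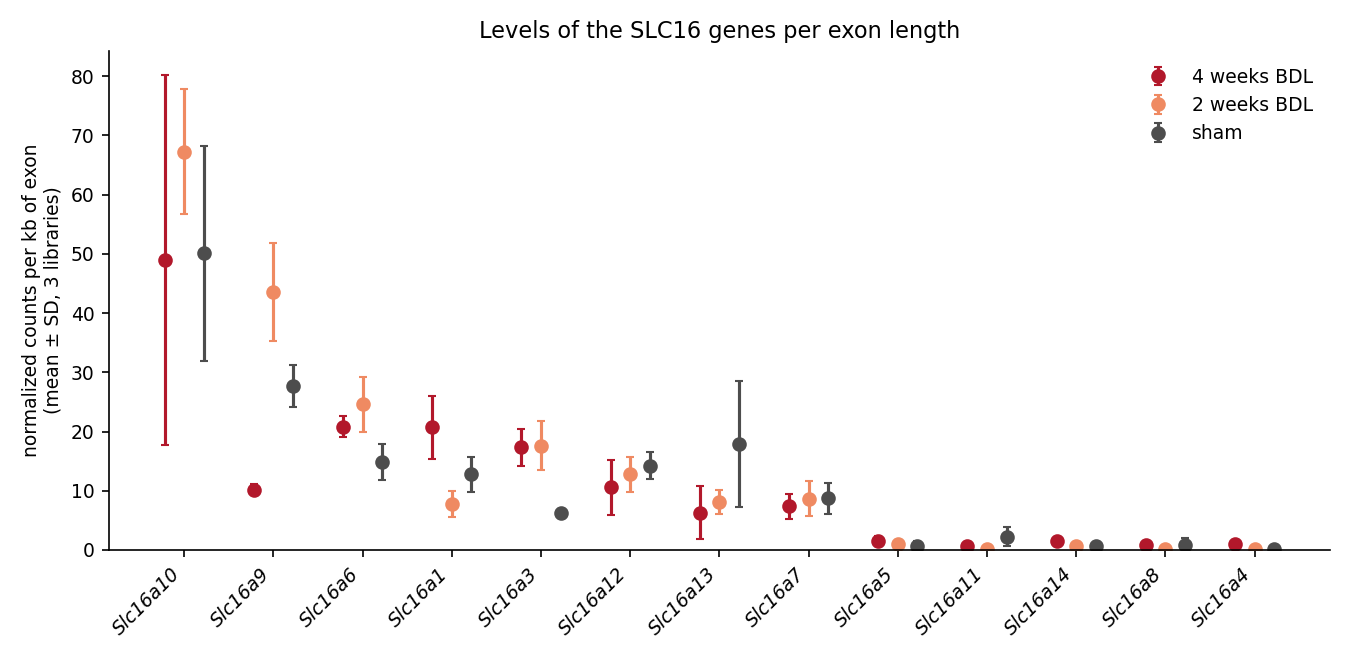
Mean level of SLC16 genes in normalized counts per kb of merged exon, with bars of 1 SD over 3 libraries, at 4 weeks of BDL, 2 weeks of BDL and after sham surgery. Slc16a10 has the highest mean, the groups of Slc16a9 stand apart, and the 5 genes at the right stay near 0.

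Slc16a3 was the member with an adjusted p below 0.05 (limma) between ligated and sham libraries. Its values were 76.1, 90.4 and 109.5 normalized counts at 4 weeks and 77.2, 84.9 and 119 at 2 weeks, against 33.9, 36.8 and 28.8 after sham surgery. Every ligated library lay above every sham library, and the values at both times covered the same range. The mean was 92.9 ± 17.7 in the 6 ligated libraries and 33.2 ± 4.04 in the 3 sham libraries (SD), a ratio of 2.80. With limma on log2(normalized count + 1), ligated (the mean of both times) against sham gave a log2 fold change of 1.44 ± 0.23 (SE; 95% interval 0.93 to 1.96) and an adjusted p of 0.0284 over 11809 genes. This contrast is independent of the one between the times that chose the family.

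The log2 fold changes of Slc16a3 at the separate times were close. At 4 weeks against sham its log2 fold change was 1.44 ± 0.27 with an adjusted p of 0.0372, and at 2 weeks 1.45 ± 0.27 with an adjusted p of 0.168 (limma), so the second did not pass. Both share libraries with the contrast that chose the family and share the sham libraries with each other. The ligated call at an adjusted p of 0.05 held without 4-week replicate 1 or sham replicate 2 and was lost without any other single library, at adjusted p of 0.0521 to 0.0944, while the log2 fold change stayed between 1.35 and 1.52. Sham replicate 2 held only 7 reads of the gene. The 4-week call was likewise lost without each library other than those, with adjusted p of 0.0582 to 0.151.

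**Figure D2:**
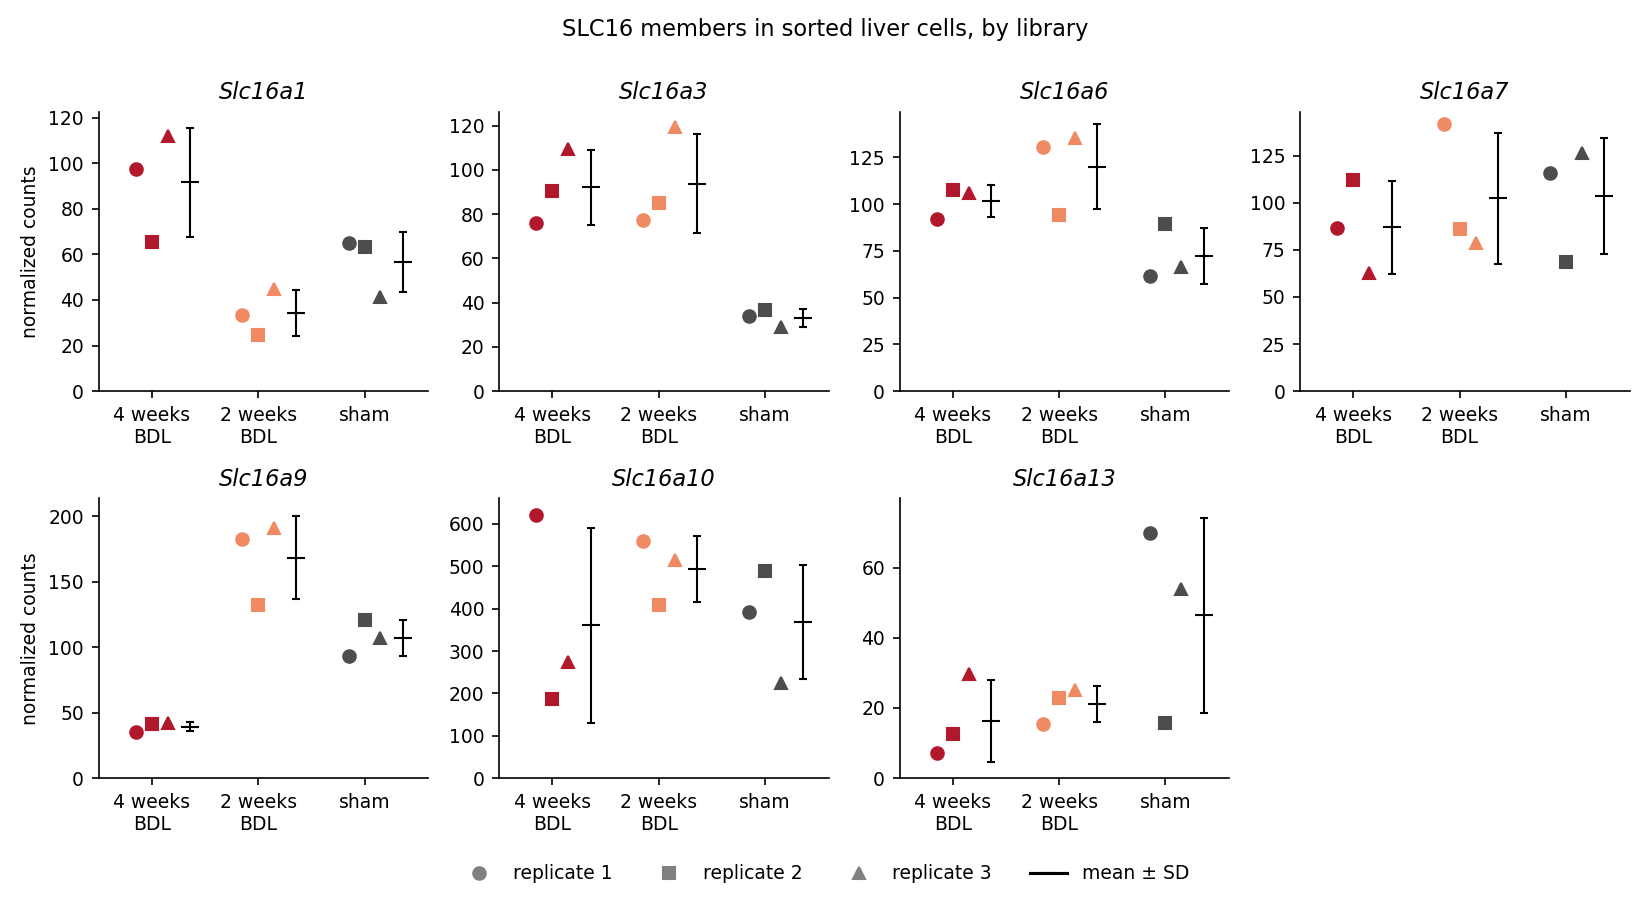
Normalized counts of the 7 members in each library at 4 weeks of BDL, 2 weeks of BDL and after sham surgery, with symbols for replicates and bars for the mean ± SD of 3 libraries. Slc16a3 is higher in all 6 ligated libraries than in all sham libraries, whereas the means of Slc16a1 and Slc16a9 stand on opposite sides of sham at the times of ligation.

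Slc16a1, the widely expressed carrier of lactate and ketone bodies, showed the opposite arrangement. It was at 97.3, 65.4 and 112 normalized counts at 4 weeks and 33.6, 24.8 and 44.7 at 2 weeks, against 65.1, 63.1 and 41.3 after sham surgery. All 4-week libraries lay above all 2-week libraries, and the 4-week and sham groups barely separate, the nearest pair being 65.4 in 4-week replicate 2 and 65.1 in sham replicate 1. The ratio of the 4-week to the 2-week mean was 2.66, and log2 differences were 1.39 for 4 weeks against 2 weeks, 0.68 for 4 weeks against sham and -0.71 for 2 weeks against sham. These chose the family or share libraries with the choice, so none has a test. Over both times together, the log2 fold change of ligated against sham was -0.02 ± 0.29 (95% interval -0.66 to 0.63, adjusted p = 0.987 by limma).

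Slc16a7, the high-affinity carrier of lactate and pyruvate, was at 86.3, 112 and 62.8 normalized counts at 4 weeks and 142, 86.2 and 78.5 at 2 weeks, against 116, 68.3 and 126 after sham surgery. The groups overlapped throughout. Its ligated against sham log2 fold change was -0.13 (95% interval -0.79 to 0.54, adjusted p = 0.874 by limma), an interval that leaves room for a change of either sign. Slc16a13, which carries lactate in mouse liver cells, was at 7.06, 12.5 and 29.5 at 4 weeks and 15.3, 22.9 and 25.0 at 2 weeks, against 69.7, 15.8 and 53.7 after sham surgery. Sham replicates 1 and 3 were above every ligated library, and sham replicate 2, with 3 reads of the gene, was not. The log2 fold change for ligated against sham was -1.16 ± 0.55 (95% interval -2.39 to 0.07) and did not pass, at an adjusted p of 0.376 (limma). Without sham replicate 2 it was -1.79.

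Start sites of Slc16a1, Slc16a3 and Slc16a9 are shown because Slc16a3 was the member that passed and the other pair chose the family. The stretches come from RefSeq on GRCm38.p6 and run 5′ to 3′ along the gene from position -250, position -1 being the base before the RefSeq start site. Those of Slc16a1 and Slc16a3 end at -1, and that of Slc16a9 ends at -177, before its first annotated exon. Capitals mark ACGTG or GCGTG on either strand, the core letters of a hypoxia response element, and CACGTG, an E-box that contains ACGTG on both strands.
Slc16a1, chr3:104638414-104638663, plus strand: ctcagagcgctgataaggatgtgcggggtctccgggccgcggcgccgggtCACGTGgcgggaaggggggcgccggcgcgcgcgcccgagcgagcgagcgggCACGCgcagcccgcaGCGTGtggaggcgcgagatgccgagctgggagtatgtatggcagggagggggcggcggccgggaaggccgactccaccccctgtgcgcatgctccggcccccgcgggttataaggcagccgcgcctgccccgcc
Slc16a3, chr11:120948817-120949066, plus strand: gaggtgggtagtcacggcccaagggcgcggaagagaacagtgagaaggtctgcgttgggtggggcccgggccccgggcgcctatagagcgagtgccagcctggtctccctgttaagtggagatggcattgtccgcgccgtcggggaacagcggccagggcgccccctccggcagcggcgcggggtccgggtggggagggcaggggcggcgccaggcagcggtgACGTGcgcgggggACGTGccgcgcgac
Slc16a9, chr10:70245026-70245099, plus strand: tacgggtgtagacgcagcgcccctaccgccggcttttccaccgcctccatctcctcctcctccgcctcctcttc

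The Slc16a3 window held ACGTG at -27 to -23 and again at -14 to -10. Of its bases, 14 are annotated as Slc16a3 exon. The whole window lies inside the annotated gene, which starts at position 120948480 of chromosome 11. The Slc16a9 window held GCGTG at -163 to -159, in the part that is annotated as exon and not shown. The Slc16a1 window held CACGTG at -200 to -195, GCGTG on the opposite strand at -149 to -145 and GCGTG on the strand shown at -134 to -130. ACGTG occurred in 16.57% of all 32851 windows of this length in the RefSeq table, GCGTG in 28.16% and CACGTG in 6.021%, and 38.6% held at least 1 of the cores ACGTG and GCGTG. GC content was 76.4% for the 250 bases of Slc16a1 and 73.6% for those of Slc16a3, against a median of 52.4% over all windows. These matches describe the letters in the windows and no binding was measured.

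Slc16a9, the member whose human counterpart carries carnitine, separated all 3 groups. It was at 35.3, 41.2 and 41.8 normalized counts at 4 weeks and 183, 132 and 191 at 2 weeks, against 93.5, 121 and 107 after sham surgery. No library of any group reached the range of another group: the 4-week libraries were lowest, the sham libraries between, and the 2-week libraries highest. The mean was 39.4 ± 3.59 at 4 weeks and 168.5 ± 31.9 at 2 weeks, with 107 ± 13.7 after sham surgery (SD, n = 3 each), and the 4-week mean was 0.234 of the 2-week mean. Log2 differences, given without a test, were -2.05 for 4 weeks against 2 weeks, -1.41 for 4 weeks against sham and 0.64 for 2 weeks against sham. In the independent contrast, ligated against sham, the log2 fold change was -0.39 ± 0.21 (95% interval -0.84 to 0.07) with an adjusted p of 0.420 (limma). The 3′ part of the gene overlaps the antisense gene Gm7097 and the pseudogene Gm9877, and since strand use in counting is not given in the sources used here, their reads cannot be told apart from those of Slc16a9.

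Slc16a10, the carrier of aromatic amino acids, had the most reads of the family, 4367 over the 9 libraries. It was at 621, 186 and 274 normalized counts at 4 weeks and 560.5, 409 and 514 at 2 weeks, against 392, 489 and 224 after sham surgery. The lowest and the highest library were both 4-week libraries, and every group overlapped the others. Ligated against sham gave a log2 fold change of 0.17 (95% interval -0.67 to 1.01, adjusted p = 0.866 by limma). The mean was 360.5 ± 229.8 at 4 weeks and 495 ± 77.7 at 2 weeks, against 368 ± 134 after sham surgery (SD, n = 3 each), and without 4-week replicate 1 the 4-week mean was 230.3.

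Slc16a6 (MCT7), which in zebrafish exports ketone bodies from the liver, was at 91.8, 107 and 106 normalized counts at 4 weeks and 131, 94.1 and 135 at 2 weeks, against 61.4, 89.4 and 66.2 after sham surgery. All 6 ligated libraries were above all sham libraries, the nearest pair being 91.8 at 4 weeks and 89.4 in sham replicate 2. The log2 fold change for ligated against sham was 0.61 ± 0.21 (95% interval 0.14 to 1.09), which did not pass over all genes, at an adjusted p of 0.238 (limma). Exons of Slc16a6 overlap Amz2 and Arsg on the opposite strand, with 1056 identical bases in the case of Amz2, so its reads may include theirs.

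Among the 7 members, 1 passed in ligated against sham (Slc16a3, higher), where limma called 0.745% of the 11809 genes, 56 higher and 32 lower. The members' median log2 fold change was -0.02, against 0.06 for all genes tested. With Slc16a1 and Slc16a9 left out of the count as chosen on these libraries, 1 of 5 passed at 4 weeks against sham, where 1.20% of genes were called. At 2 weeks against sham 0 of 5 passed by limma, where 0.0169% of genes (2 genes) were called and 1010 genes, 2 of the 5 members among them, had an unadjusted p under 0.05. edgeR called none of the 5 there. DESeq2 on the recovered reads, run as an alternative, called 211 genes at 2 weeks, Slc16a3 among them at an adjusted p of 0.00281.

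Overlap between the libraries of the groups takes in further members. Between ligated and sham libraries, Slc16a3 and Slc16a6 did not overlap and were higher, as for 8.36% of all genes tested in either direction. Between 4 weeks and sham, with the genes that chose the family left out, 2 of 5 members (Slc16a3 and Slc16a6) were higher without overlap, against 17.0% of all genes in either direction. Between 2 weeks and sham the same 2 of 5 were higher, against 17.9%. Slc16a1 (higher at 4 weeks) and Slc16a9 (lower at 4 weeks, higher at 2 weeks) also did not overlap with sham, and nothing is read from that, since they were chosen on these libraries. Between the times, Slc16a1 was higher and Slc16a9 lower at 4 weeks, against 9.40% of genes, and nothing is read from that count, which the choice of the family fixed. For the members as a whole, the median log2 difference of 4 weeks against 2 weeks was -0.22, with 1 member higher and 6 lower, against 0.01 for all genes. That summary uses the contrast that chose the family and includes the genes that chose it, so nothing is read from it either. Of the other members, Slc16a3 was at -0.02 ± 0.27, Slc16a6 at -0.22 ± 0.25 and Slc16a7 at -0.22 ± 0.34 (SE). Slc16a10 was at -0.63 ± 0.43 and Slc16a13 at -0.54 ± 0.64.

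**Figure D3:**
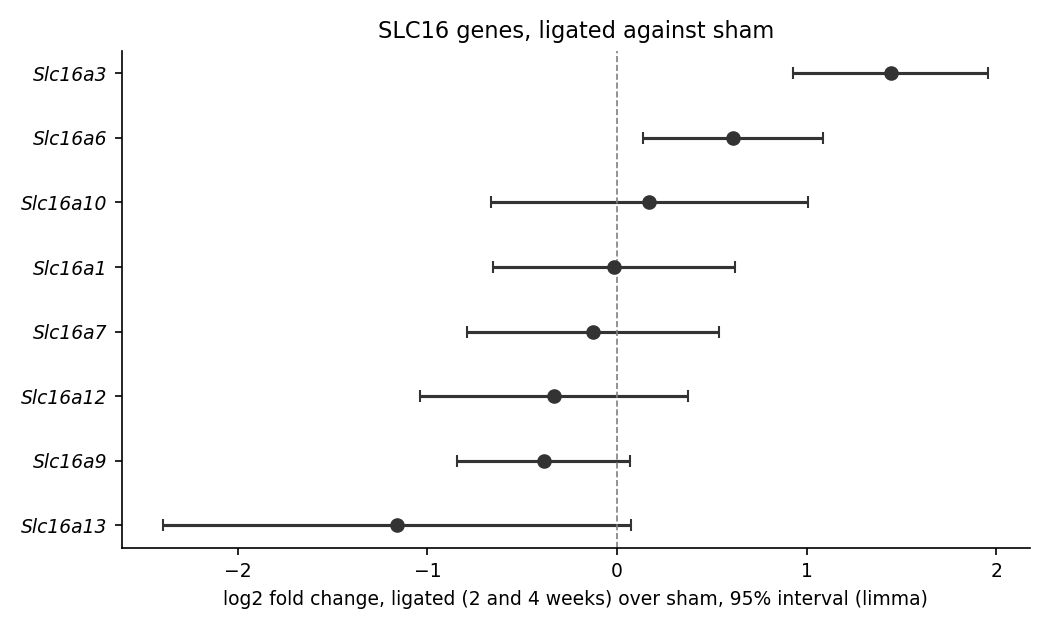
Log2 fold change of ligated (mean of 2 and 4 weeks) over sham libraries with 95% intervals from limma, for the 7 members and Slc16a12. The intervals of Slc16a3 (0.93 to 1.96) and Slc16a6 (0.14 to 1.09) lie above 0, and only Slc16a3 passed after adjustment over all genes.

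Slc16a12, a carrier of creatine outside the members, was at 24.3 to 66.6 normalized counts in the 6 ligated libraries (median 48.1), against 48.6, 63.1 and 66.2 after sham surgery, with a log2 fold change of -0.33 ± 0.32 that did not pass (adjusted p = 0.654, limma). The 5 genes under the minimum held 7 to 43 reads each over all libraries.

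Of the 3 ancillary glycoproteins, Emb rose and the other two did not pass. Emb, the partner of MCT2, was at 400.3, 189.8 and 193 normalized counts at 4 weeks and 84.3, 77.1 and 119 at 2 weeks, against 19.3, 21.03 and 9.35 after sham surgery. Every ligated library was above every sham library, and the 4-week libraries were above the 2-week libraries. Its log2 fold change for ligated against sham was 3.18 ± 0.34 (adjusted p = 0.00777, limma), and for 4 weeks against sham 3.88 ± 0.39 (adjusted p = 0.00471), while 2 weeks against sham, at 2.48 ± 0.39, did not pass (adjusted p = 0.0934). The ligated call held without each library in turn, with adjusted p up to 0.0329. Bsg, the partner of MCT1 and MCT4, was at 460 to 603.5 in ligated libraries (median 496), against 535, 894 and 592 after sham surgery, a log2 fold change of -0.35 ± 0.21 (adjusted p = 0.470). Nptn, a relative of both, was at 342 to 526 in ligated libraries (median 371), against 458, 536 and 322 after sham surgery, with a log2 fold change of -0.09 ± 0.23 (adjusted p = 0.889).

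The lactate dehydrogenases interconvert lactate and pyruvate, Ldha being the subunit that favours lactate and Ldhb the one that favours pyruvate. Ldha was at 661 to 1406 normalized counts in ligated libraries (median 749.9), against 719.9, 1935 and 472 after sham surgery. Its log2 fold change of -0.07 ± 0.40 did not pass (adjusted p = 0.949, limma), and without sham replicate 2, the highest library, it was 0.50. Ldhb was at 37.7, 29.5 and 32.0 at 4 weeks and 22.4, 15.03 and 17.6 at 2 weeks, against 1.83, 21.03 and 6.23 after sham surgery, where the value of 21.03 rests on 4 reads. Its log2 fold change was 1.73 ± 0.58 (adjusted p = 0.218), and without sham replicate 2 it was 2.49 and passed at an adjusted p of 0.0371.

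**Figure D4:**
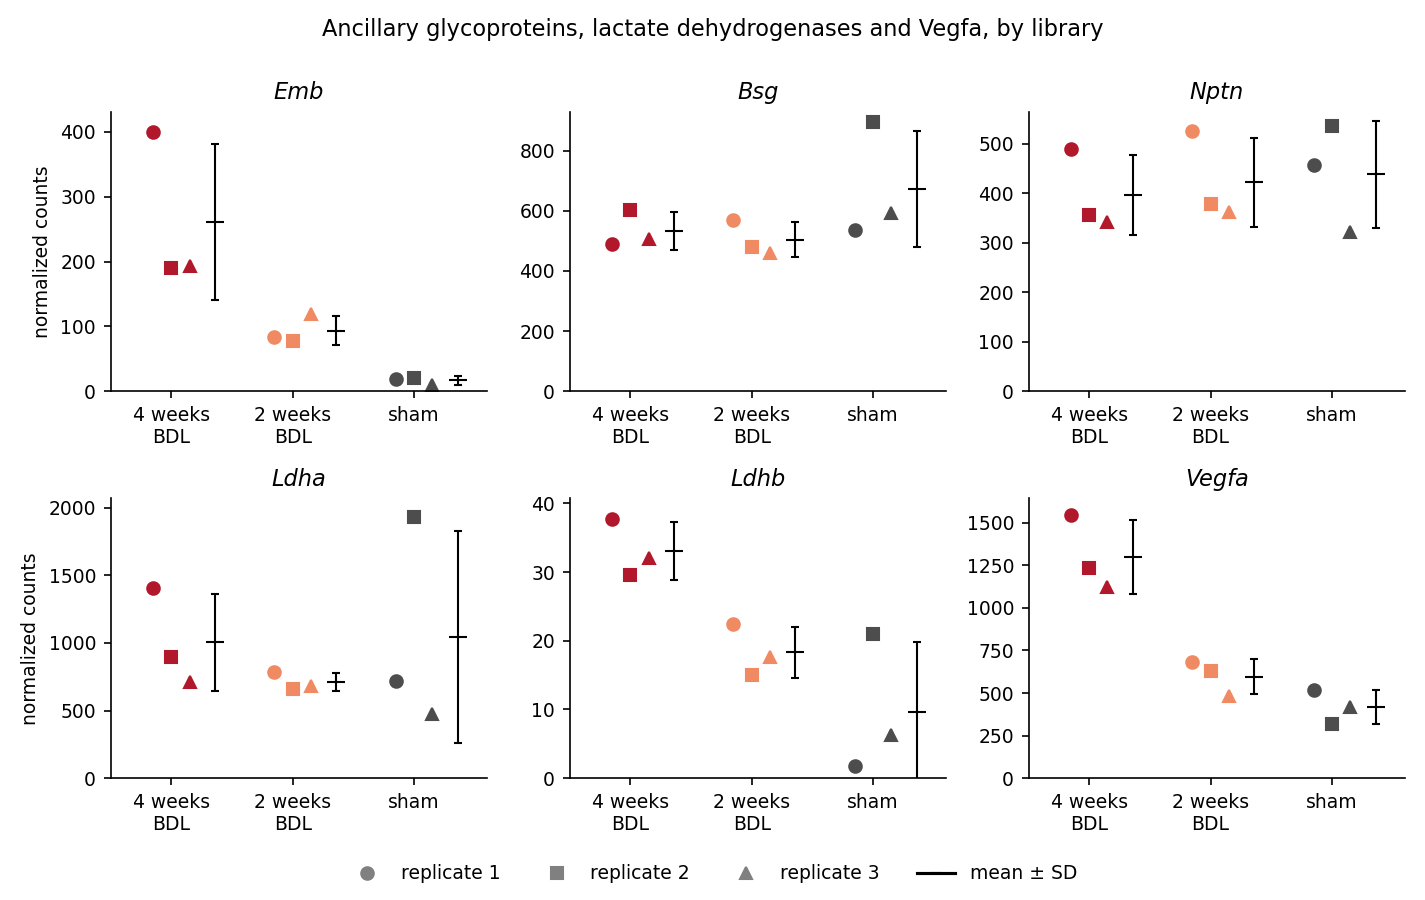
Normalized counts of the ancillary glycoproteins Emb, Bsg and Nptn, the lactate dehydrogenase subunits Ldha and Ldhb, and Vegfa in each library at 4 weeks of BDL, 2 weeks of BDL and after sham surgery, with the mean ± SD of 3 libraries. Emb and Vegfa are highest in the 4-week libraries, and the highest values of Bsg and Ldha are in sham replicate 2.

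In the wider list of lactate and pyruvate enzymes, 0 of 15 tested genes passed in ligated against sham, at 2 weeks or at 4 weeks by limma, and the median log2 fold change in ligated against sham was 0.06, the same as for all genes. Ligated against sham, 3 of the 15 had an unadjusted limma p under 0.05, as did 1683 of all 11809 genes tested. There edgeR called none of the 15 and DESeq2 called Ldhb, and the same held at 4 weeks against sham. At 4 weeks 11 of the 15 were above 0, with a median of 0.22 against 0.07 for all genes. At 2 weeks 7 were above 0, with a median of -0.05 against 0.07. In ligated against sham Dlat, a subunit of pyruvate dehydrogenase, had the lowest p after Ldhb, with a log2 fold change of 0.54 ± 0.20 (adjusted p = 0.249, limma). Of the other monocarboxylate carriers, 2 of 5 were tested and 0 passed by limma, edgeR or DESeq2, with an unadjusted limma p under 0.05 for 1 of them. These were Mpc1 (0.63 ± 0.26, adjusted p = 0.314) and Mpc2 (0.14 ± 0.24, adjusted p = 0.822), which together form the carrier of pyruvate into mitochondria.

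Among the 6 ketone body enzymes, 0 passed in ligated against sham by limma, edgeR or DESeq2, and 1 had an unadjusted limma p under 0.05. The log2 fold change was above 0 for 1 and below 0 for 5, with a median of -0.43 against 0.06 for all genes. Aacs, which activates acetoacetate for lipid synthesis, had a log2 fold change of -0.64 ± 0.25 (adjusted p = 0.287). Of 14 tested carnitine and creatine genes 0 passed by any of these tools, 4 had an unadjusted p under 0.05, and the median was -0.08. Gatm and Gamt, which make creatine in sequence, had log2 fold changes of -0.76 ± 0.31 (adjusted p = 0.301) and -1.91 ± 0.80 (adjusted p = 0.318). Of 7 tested genes of aromatic amino acid and thyroid hormone handling 0 passed by any of them in ligated against sham, 2 had an unadjusted p under 0.05, and the median was -0.11. The amino acid carrier Slc43a2 had a log2 fold change of 0.62 ± 0.24 (adjusted p = 0.289) and the thyroid hormone receptor Thrb of -1.44 ± 0.52 (adjusted p = 0.247). Beside the counts of these lists, 1683 of all 11809 genes tested had an unadjusted limma p under 0.05 in ligated against sham.

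The hypoxia-inducible factor list, which covers the factors, their oxygen-dependent regulators and some of their targets, had 13 tested genes of 14. The gene under the minimum, Car9, had means of 5.52 normalized counts at 4 weeks, 3.16 at 2 weeks and 16.8 after sham surgery. At 4 weeks against sham the log2 fold change was above 0 for 12 of the 13 tested, with a median of 0.61 against 0.07 for all genes. The 12 include Slc2a1, Epas1 and Arnt, at 0.02, 0.01 and 0.04. Of the 13, 1 passed, where 1.20% of all genes were called. There 5 of the 13 had an unadjusted limma p under 0.05, as did 1621 of all 11809 genes tested. In that comparison edgeR called Vegfa, and DESeq2 called Vegfa and Hif1a. At 2 weeks 0 passed by limma, edgeR or DESeq2, 1 had an unadjusted p under 0.05 (1010 of all genes), and the median was 0.37. In ligated against sham 0 passed by limma or edgeR, and 4 had an unadjusted p under 0.05 (1683 of all genes). DESeq2 called Vegfa there, and the median was 0.45. The gene that passed was Vegfa, an endothelial growth factor, at 1545, 1232 and 1125 normalized counts at 4 weeks and 679.5, 627 and 482 at 2 weeks, against 519.9, 321 and 415 after sham surgery. Its 4-week log2 fold change against sham was 1.65 ± 0.25 (adjusted p = 0.0187, limma), and the call was lost without 4-week replicate 2, 4-week replicate 3 or sham replicate 3, with adjusted p of 0.0701, 0.0741 and 0.0539. In ligated against sham it was 1.08 ± 0.22 (adjusted p = 0.0592).

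Over the 9 libraries, the genes whose log2 levels ran most like each member's were sought among 7683 genes averaging 50 normalized counts or more. For Slc16a9 these were Calhm2 (Pearson r = 0.964), Pkp4 (0.941) and Abcc10 (0.921). For Slc16a1 they were Agpat4 (0.903), Pcid2 (0.881) and Ankrd33b (0.864), and for Slc16a3 Serpina3n (0.960) and Slit3 (0.925). Slc16a6 ran most like Asl (0.913) and the collagen genes Col3a1 (0.911) and Col1a1 (0.904). For Slc16a10 the nearest were Xrn2 (0.968), Epn1 (0.965) and Arg2 (0.964), for Slc16a13 Slc4a2 (0.974), Dlg4 (0.965) and Fam189a2 (0.946), and for Slc16a7 Snx6 (0.919), Cmtm3 (0.887) and C2cd3 (0.881). Between members, r was highest for Slc16a3 with Slc16a6, at 0.843, and lowest for Slc16a1 with Slc16a9, at -0.796. Nothing is read from the r of Slc16a1 with Slc16a9, since the family was chosen on opposite changes of that pair in these libraries. All of these share the same 9 libraries and their differences in depth and cell mixture, and are descriptions.

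Markers of other cell types moved with several members. All 19 Kupffer and macrophage markers were read, and their sum was 25444 to 53977 normalized counts at 4 weeks and 41980 to 91708 at 2 weeks, against 36713 to 85056 after sham surgery. Slc16a10 followed that sum with r = 0.800 over 9 libraries and Slc16a9 with r = 0.638, on log scales. Nothing is read from the r of Slc16a9, which was chosen for its fall between 2 and 4 weeks in these libraries. At 4 weeks against sham, 14 of the 19 had a log2 fold change below 0, with a median of -0.82. There 2 passed, both lower, where 1.20% of all genes were called. At 4 weeks against 2 weeks 15 of 19 were below 0, with a median of -0.95. In 4-week replicate 1 the sum was 53977, with Slc16a10 at 621 and Slc16a9 at 35.3. The Kupffer genes Clec4f and Timd4 were at 1733 and 141 in that library, against 6850 to 13769 and 729 to 2119 after sham surgery. Cd5l of the same list was at 3243, against 4728 to 17422. Vsig4, at 1900, lay within its sham range of 1054 to 2597, as the sum of all 19 markers lay within its own. All 15 monocyte and neutrophil markers had reads, with sums of 1260 to 2008 at 4 weeks and 866 to 1615 at 2 weeks, against 321 to 873 after sham surgery. Slc16a3 had r = 0.847 and Slc16a6 r = 0.712 with that sum. In ligated against sham 7 of the 9 list genes tested had a log2 fold change above 0 and 2 below. There 3 of the 9 passed, all higher, where 0.745% of all genes were called. Of the defining monocyte and neutrophil genes, Ly6c2 had 1 to 8 reads per ligated library and 0 reads in each sham library, and Ly6g had 0 to 4 reads per ligated library and 0 in each sham library. S100a8 had 11 to 130 reads per ligated library, against 0, 2 and 0 in sham libraries. Chil3 had 130 to 1427 reads per ligated library, against 2, 0 and 0 in sham libraries. F13a1, also on the list, was at 239 to 728 normalized counts in ligated libraries, against 27.3 to 110 after sham surgery. In 4-week replicate 1, Chil3 at 1120 and F13a1 at 329 contributed to a list sum of 2006. Ccr2 is on both the macrophage and the monocyte list. The part of these cells in the values of Slc16a3, Slc16a6, Slc16a9, Slc16a10 or Emb was not tested.

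The 18 stellate and fibroblast markers were all read, with sums of 10531 to 17455 at 4 weeks and 9680 to 14691 at 2 weeks, against 2382 to 8583 after sham surgery. Slc16a3 had r = 0.705 and Slc16a6 r = 0.343 with that sum, to which Reln, also on the lymphatic list, contributes. The 15 cholangiocyte markers were all read, with sums of 2384 to 5531 at 4 weeks and 2748 to 4046 at 2 weeks, against 4884 to 10260.0 after sham surgery, and Slc16a13 had r = 0.761 with that sum, against -0.687 for Slc16a3, -0.683 for Slc16a6 and -0.668 for Slc16a10. The 15 lymphatic endothelial markers summed to 27258 to 46945 at 4 weeks and 17682 to 47863 at 2 weeks, against 8001 to 45888 after sham surgery, the lowest being sham replicate 2. Correlations of the members with the lymphatic sum ran from -0.555 for Slc16a10 to 0.386 for Slc16a13. Sinusoidal endothelial markers summed to 6150.2 to 13073 at 4 weeks and 5759 to 10199 at 2 weeks, against 4453 to 17677 after sham surgery, with r = -0.833 for Slc16a10. Hepatocyte markers summed to 1661 to 23956 at 4 weeks and 4191 to 12124 at 2 weeks, against 1239.8 to 16276 after sham surgery. Markers of T and NK cells summed to at most 94.7 at 4 weeks, 90.2 at 2 weeks and 171 after sham surgery, with r = -0.817 for Slc16a3, and those of B and plasma cells to at most 48.0, 29.8 and 31.5 at 4 weeks, at 2 weeks and after sham surgery, with r = -0.808 for Slc16a7. Erythroid and platelet markers summed to 293 to 351 at 4 weeks and 123 to 156 at 2 weeks, against 36.8 to 74.3 after sham surgery, with r = 0.832 for Slc16a3. Few genes of these lists averaged 10 normalized counts or more: 2 of 12 for T and NK, 0 of 9 for B and plasma, and 2 of 9 for erythroid and platelet. The T and NK and the B and plasma correlations thus rest on low sums. The part of these cells in the members' values was not tested.

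**Figure D5:**
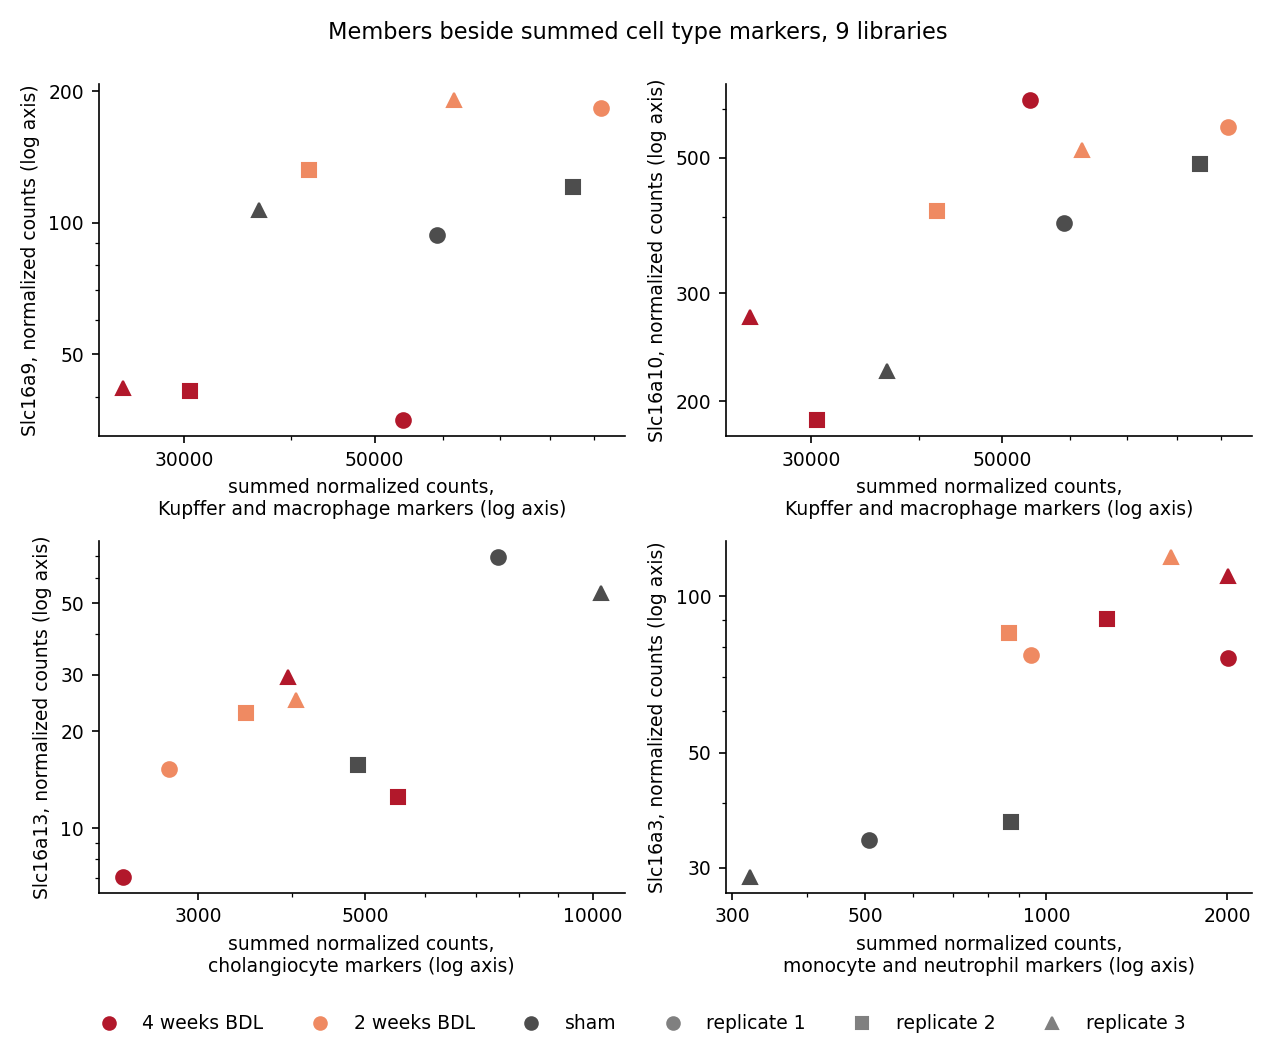
Level of a member (normalized counts, log axis) against the summed normalized counts of a marker list (log axis) in the 9 libraries, for Slc16a9 and Slc16a10 with Kupffer and macrophage markers, Slc16a13 with cholangiocyte markers and Slc16a3 with monocyte and neutrophil markers. The 4-week replicate 1 library has a macrophage sum of 53977 with Slc16a10 at 621 and Slc16a9 at 35.3.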

How the data were processed

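The deposited signal was a table of normalized counts, which the authors scaled with a single factor per library, for 21936 protein-coding rows. DESeq2 1.22.1, StringTie 1.3.3b, HISAT2 2.1.0 and Trim Galore 0.5.0 are named in the submitters' processing notes, with build mm10; their order, settings, annotation and use of strand are not given in the sources used here. Dividing each column by its smallest value above 0 gave whole reads for 100.0% of 197424 values (tolerance 0.001). A count of 0 allows up to 3 reads, 15.8 normalized counts in sham replicate 2 and 1.77 to 3.69 elsewhere; this and other limits of depth cover counting error only. Every pair of replicate libraries differed by more than sampling noise (chi-square over its degrees of freedom between 6.68 and 45.9), so all were kept as separate.

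Since the values are normalized, the main test was limma 3.58.1 (R 4.3.3) on log2(normalized count + 1), fitting 3 group means over all 9 libraries, a moderated variance with trend, two-sided, adjusted by the Benjamini-Hochberg method across the 11809 genes averaging 10 or more; a gene passed at an adjusted p below 0.05. Fold changes on this scale understate those of low genes. P-values measure the spread between these libraries. Contrasts were ligated (mean of 4 and 2 weeks) against sham, 4 weeks against sham and 2 weeks against sham; 4 weeks against 2 weeks was described only. Alternatives were a pseudocount of 5, no filter, TMM scaling, a replicate block, library quality weights, edgeR 4.0.16 and DESeq2 1.42.0 on the recovered reads, and leaving out libraries. The procedure was tested on simulated counts.

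The members and the 18 gene lists, 10 of them cell type markers, were chosen with earlier results of these data known. Named genes were the members, the other SLC16 genes, the ancillary glycoproteins, Ldha and Ldhb, and from each other transport or metabolism list the genes that passed or else the 2 lowest p, with the 3 genes most like each member. Some genes that this rule names are not reported here. Lists are described by counts and medians. Coordinates and exon lengths are from GENCODE M21 on GRCm38, the assembly of mm10, which held the gene IDs of all 7 members. The RefSeq promoter table held 4 of the 7 members (Slc16a1, Slc16a3, Slc16a9 and Slc16a10, not Slc16a6, Slc16a7 and Slc16a13).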

Additional observations from a re-analysis of the deposited data

Results flagged for a closer look

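The means of Slc16a1 lay on opposite sides of sham at the times of ligation. Its log2 difference from sham was 0.68 ± 0.33 at 4 weeks and -0.71 ± 0.33 at 2 weeks (SE). Every 4-week library lay above the sham libraries, the nearest pair being 65.4 and 65.1. Every 2-week library lay below the sham mean of 56.5, but the groups overlapped. In 2-week replicate 3 the gene was at 44.7, above the 41.3 of sham replicate 3.

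Slc16a9 did the reverse. Its log2 difference from sham was -1.41 at 4 weeks and 0.64 at 2 weeks, with every 4-week library below and every 2-week library above all sham libraries. The difference between the times was not tested for either gene, because the family was chosen on it, and both differences share the sham libraries.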

How the results depend on the processing

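Counts of genes called by limma were 88 for ligated against sham, 142 for 4 weeks against sham and 2 for 2 weeks against sham, and they depended strongly on the setting. In that order of comparisons they were 537, 573 and 211 with DESeq2, 1814, 1608 and 1112 with library quality weights, and 349, 467 and 178 without sham replicate 2 and 4-week replicate 1 together. edgeR called 133 genes in ligated against sham. Leaving out 1 library at a time gave 9 to 109, 9 to 173 and 0 to 14. Correlations of deviations from the group means ran from -0.445 to 0.228 for same-numbered libraries, with 2 of 9 over 0.1. For differently numbered libraries they ran from -0.332 to 0.376. With spreads this wide, the correlations cannot decide whether the replicate number pairs the libraries. With the replicate number as a block, 30 genes were called in ligated against sham and 84 at 4 weeks, and the adjusted p of Slc16a3 was 0.0637 and 0.0823. Other alternatives gave Slc16a3 an adjusted p of 2.03e-04 to 0.0334 in ligated against sham. At 2 weeks it passed with weights (0.0027), DESeq2 (0.00281) and without both libraries (0.0274). With weights Slc16a6 and Slc16a13 also passed in ligated against sham (0.00667 and 0.0105). TMM scaling put the median of all genes at -0.09 for 4 weeks against 2 weeks, against 0.01.

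Signs turned for some results that did not pass, and the cause was not tested. For ligated against sham, Slc16a1 was 0.0036 with edgeR, 0.0073 with DESeq2 and 0.046 without both libraries, Slc16a10 was -0.055, Slc16a12 0.0056 and Ldha 0.15 with weights, and Ldha was 0.37 without both libraries. At 2 weeks Slc16a7 was 0.031 with TMM. Leaving out 1 library at a time gave, for ligated against sham, -0.22 to 0.099 for Slc16a1, -0.40 to 0.040 for Slc16a7, -0.15 to 0.41 for Slc16a10, -0.29 to 0.073 for Nptn and -0.51 to 0.50 for Ldha. It gave -0.29 to 0.15 for Slc16a7 at 2 weeks and -0.63 to 0.24 for Slc16a10 at 4 weeks. Sham replicate 2, with 592419 reads, limits the low genes most.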
